A study of Mus musculus with 10 samples.

Results

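The 7 genes described here encode the insulin receptor (Insr), the insulin-like growth factor 1 receptor (Igf1r), the adaptors insulin receptor substrate 1 and 2 (Irs1, Irs2) and the forkhead transcription factors Foxo1, Foxo3 and Foxo4. They were chosen by name, and all 7 of the listed symbols were found among the 49624 row names of the deposited gene table. No row of theirs was merged with another gene. Insr was split over 2 rows and Irs1 over 3, which were summed. All 7 passed the filter on low values, a normalised count of at least 10 in at least 2 libraries, so no member was lost to it.

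Insulin and insulin-like growth factors activate receptor tyrosine kinases, which phosphorylate the IRS adaptors. These recruit phosphoinositide 3-kinase (PI3K), and the lipid it makes leads to activation of the kinase AKT. AKT phosphorylates FoxO factors, which are then held in the cytoplasm by phosphoserine-binding proteins of the YWHA family. When the pathway is quiet, FoxO factors enter the nucleus and act on genes of cell cycle arrest, stress defence, apoptosis and metabolism, and in liver and other tissues on Irs2 and Insr, which closes a feedback loop. In embryonic stem (ES) cells, Foxo1 has been linked to the upkeep of pluripotency.

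RNA was sequenced from mouse ES cells derived from blastocysts, in 5 groups of 2 libraries each. The WT group (labelled wild type) and the KO group (labelled Mof-KO) shared a C57BL/6J strain with Mof fl/fl alleles and the inducible recombinase Cre-ER TM, so cells of both groups carried floxed Mof (gene Kat8, a histone acetyltransferase). The labels give ethanol or 100 nM 4-hydroxytamoxifen for 3 days without saying which group had which, and name no group with the drug or active Cre but intact Mof, so an effect of either cannot be told apart from that of Mof loss. Control, ETO and Released were cells of the E14tg2a line. Control had water and ETO had etomoxir, an inhibitor of fatty acid entry into mitochondria, for 4 days each, and Released had 4 further days without etomoxir. The labels name no untreated group of the same total time as Released. Effects of etomoxir or its release there cannot be told apart from that of longer culture. The dose of etomoxir is not given in the sources used here. All groups grew in 2i/LIF medium, a serum-free base with 1 µM PD0325901 (a MEK inhibitor), 3 µM CHIR99021 (an inhibitor of GSK3, itself a target of AKT) and LIF at 1000 U/ml. The base, Ndiff227, is of the N2B27 type, whose N2 supplement contains insulin. The labels call the 2 libraries of a group biological duplicates without naming separate cultures, so the tests below cover only the spread of these libraries, which may be technical. The lines differ in origin and in experiment, so differences between WT and Control levels are given without a test.

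Sequencing depth, estimated from the step size of low values, ran from 9783249 to 16779174 reads. A gene listed at 0 could still hold up to 3 reads, or 2.07 to 4.04 normalised counts, by counting error alone. Kat8, whose exons overlap those of Prss8, measured 433 and 357 normalised counts in WT and 222 and 205 in KO, a fall of the targeted gene to a lower but measurable level (-0.88, limma adjusted p = 3.64e-05). All 12 markers of naive ES cells had a row, with a summed FPKM (fragments per kilobase of gene per unit of library size) of 2633 to 3060 in the WT, KO, Control and Released libraries and 1915 to 1941 in ETO. In ETO against Control, 10 of these 12 fell and 2 rose. The summed FPKM of 8 trophectoderm markers was 34.4 to 34.6 in Control, 267 to 277 in ETO and 55.1 to 61.5 in Released (49.1 to 54.7 in WT and KO). Most of the ETO sum came from the keratins Krt18 (130 and 134 FPKM) and Krt8 (88.5 and 97.6). In ETO against Control 5 of 6 tested members were higher and 1 lower. The lower one was Cdx2, at 61.6 and 35.3 normalised counts in Control and 5.93 and 7.47 in ETO. Elf5 was near 0 (under 0.5 FPKM in all libraries). Markers of primitive endoderm summed to 14.5 to 21.5 FPKM in WT, KO and Control and 30.5 to 37.7 in ETO and Released, with Sox7 near 0. In ETO against Control, 4 of 7 tested endoderm markers rose and 0 fell. In Released against ETO 0 rose and 4 fell, and in Released against Control 2 rose and 1 fell. Large parts of the Released sum were Dab2 (13.6 and 16.3 FPKM) and Col4a1 (9.49 and 9.05). Fibroblast markers summed to at most 7.02 FPKM, with 5 of 8 near 0, and 1 of 2 tested, Col1a1, rose in ETO against Control (1.91). The 4 neural markers with a row summed to 2.90 to 3.09 FPKM in Control, 7.31 to 7.64 in ETO, 3.68 to 4.00 in Released and 7.89 to 8.93 in WT and KO. Of these 4, 2 rose in ETO against Control, Nes (1.83) and Zic1 (4.49). Mitochondrial rows held 0.588% and 0.761% of the signal in ETO and 1.85% to 3.71% in the other libraries, leaving out Released replicate 1, where 2 of these rows are listed at 0. The part of these shifts in the changes below was not tested. In bulk RNA, fewer cells of a type and less RNA per cell cannot be told apart.

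The promoters of Irs1 and Irs2 are shown because Irs2 had the largest change of the 7 genes and because both hold, next to each other, an E-box (CACGTG, the site of factors such as TFE3 and MYC) and the insulin response sequence (TGTTTTG, a form of FoxO site). The sequences are the 250 bases before the RefSeq transcription start (GRCm38.p6, both on the minus strand, printed 5′ to 3′ on that strand), with matches in capitals. Irs2 lies at chr8:11008930-11009179 and Irs1 at chr1:82291440-82291689.
Irs2: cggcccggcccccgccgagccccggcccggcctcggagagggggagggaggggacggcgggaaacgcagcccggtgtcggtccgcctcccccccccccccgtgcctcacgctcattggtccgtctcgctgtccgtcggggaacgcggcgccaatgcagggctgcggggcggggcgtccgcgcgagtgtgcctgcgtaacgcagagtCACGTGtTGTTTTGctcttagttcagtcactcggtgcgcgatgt
Irs1: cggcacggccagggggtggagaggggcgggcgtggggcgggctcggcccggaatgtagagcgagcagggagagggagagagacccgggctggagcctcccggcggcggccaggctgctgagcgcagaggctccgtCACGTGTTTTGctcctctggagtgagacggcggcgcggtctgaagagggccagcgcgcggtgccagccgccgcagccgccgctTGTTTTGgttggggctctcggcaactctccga
In Irs2 the E-box began 44 bases and the insulin response sequence 37 bases before the start. In Irs1 the E-box began 115 bases before the start and overlapped an insulin response sequence that began at 111, and another insulin response sequence began at 32. Among 32851 RefSeq promoters, searched over the same 250 bases on both strands, 5.56% held TGTTTTG and 6.02% held CACGTG. The FoxO consensus GTAAACA (3.17% of promoters) and the cyclic AMP response element TGACGTCA (1.55%) were not among the letters of these windows. RefSeq promoters of Foxo1, Foxo3 and Igf1r matched by symbol and held none of the 4 motifs. Those of Insr and Foxo4 were not used here. A match is a description of letters and not a measured binding site.

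Normalised counts are counts that the authors divided by 1 factor per library, and changes are given as log2 of (normalised count + 1) with the standard error (SE) of a limma model of all 10 libraries. Genes with an adjusted p (Benjamini-Hochberg, over 16056 tested genes) under 0.05 are said to be called. In KO against WT, 1 of the 7 genes was called, where 37.9% of all tested genes were (24.6% higher and 13.3% lower). In ETO against Control all 7 were called (6 rose and 1 fell), where 60.8% of all genes were (26.8% higher and 34.0% lower), so most genes of any kind moved in this comparison. The median change of the 7 was 0.77 in ETO against Control, beside -0.09 over all tested genes, and 0.15 in KO against WT, beside 0.08. Libraries of the groups compared lay apart for all 7 genes in ETO against Control, beside 81.6% of all tested genes. They lay apart for 4 of 7 in KO against WT (Foxo1, Foxo4, Igf1r and Insr), beside 64.6%, for 6 of 7 in Released against ETO (all except Foxo1), beside 81.0%, and for 5 of 7 in Released against Control (all except Irs1 and Irs2), beside 61.7%.

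**Figure D1:**
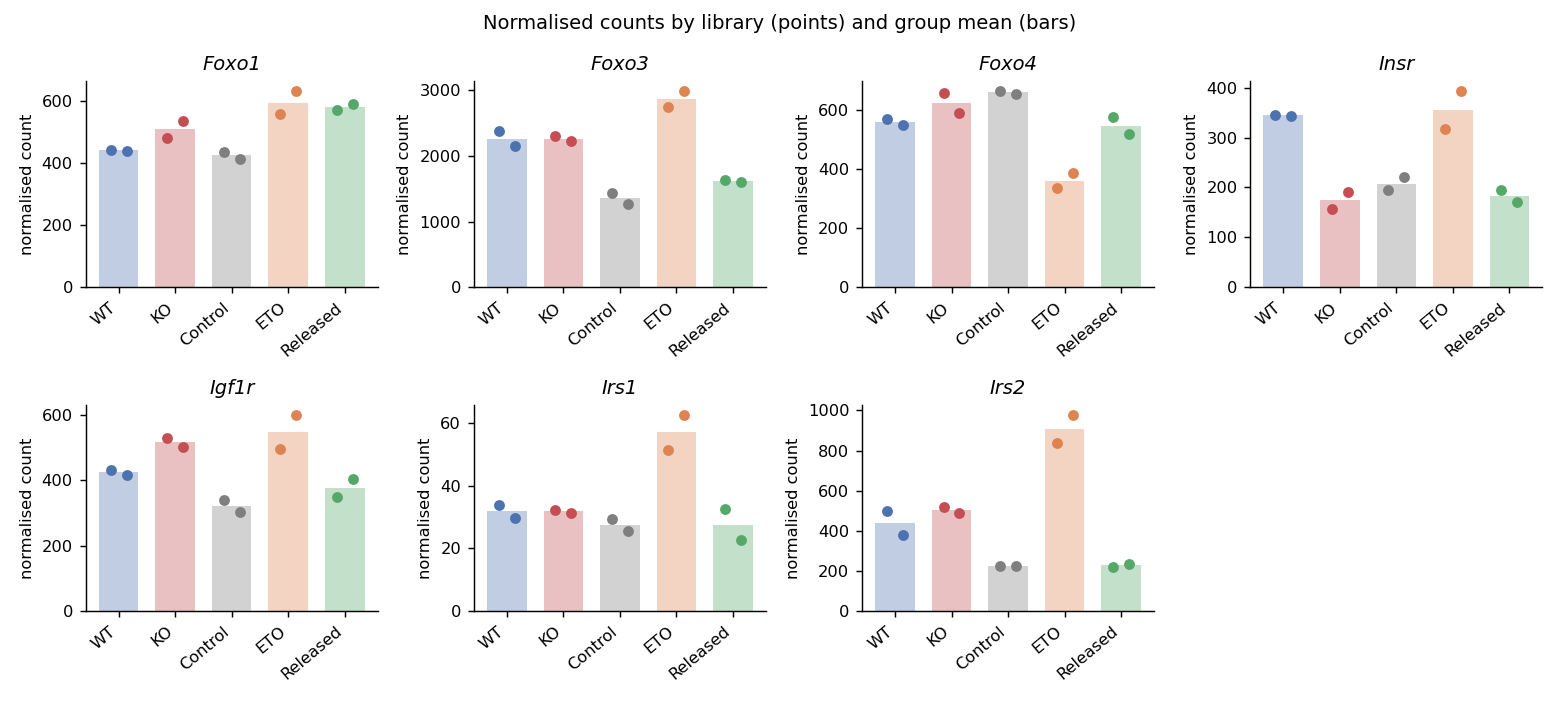
Normalised counts (vertical axes, each from 0) of the 7 genes in the 5 groups. Points are the 2 libraries of a group and bars are group means. Both ETO libraries lie above both Control libraries for every gene except Foxo4, where both lie below, and both KO libraries of Insr lie below both WT libraries.

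Insr (ENSMUSG00000005534, chromosome 8, 3122061 to 3279617, minus strand, GENCODE M21 on GRCm38) was the one gene of the 7 called in KO against WT. WT held 346 and 343 normalised counts and KO 157 and 191. Control held 195 and 221, ETO 316 and 394, and Released 194 and 171. KO libraries overlapped those of Released, WT libraries overlapped those of ETO, and Control lay apart in between. The mean was 1.98-fold lower in KO than in WT (log2 change -0.99 ± 0.14 SE, limma adjusted p = 6.87e-05). In ETO it was 1.71-fold higher than in Control (0.76 ± 0.14, adjusted p = 0.00019), and the difference between the ETO and KO changes was 1.75 (SE 0.20, adjusted p = 2.4e-06). After release it fell by 0.95 on the log2 scale against ETO (adjusted p = 2.68e-05) and stood at -0.19 against Control, with a 95% interval of -0.48 to 0.11 (adjusted p = 0.42).

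The 2 deposited rows of Insr did not share this pattern. The larger row held 320.2 and 311 normalised counts for WT and 121 and 166 for KO. It held 175 and 174 for Control, 291 and 361 for ETO, and 175 and 153 for Released. Fitted alone, it changed by -1.15 in KO (adjusted p = 0.000111) and by 0.89 in ETO (adjusted p = 0.000229). The smaller row lay between 18.5 and 47.1 in all 10 libraries and was called in neither comparison (0.07 and -0.10, adjusted p = 0.911 and 0.83). What part of the gene each row covers is not given in the sources used here. In the deposited FPKM table the larger row fell more steeply in KO, from 5.12 and 5.32 to 1.40 and 1.37 FPKM (log2 of (FPKM + 0.1) changed by -1.84, adjusted p = 0.00521), and its rise in ETO was 0.66 (adjusted p = 0.0747, not called). FPKM per 1000 counts of this row ranged from 8.25 to 19.1 between libraries, so the length that the authors divided by was not constant.

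Igf1r (ENSMUSG00000005533, chromosome 7, 67952827 to 68233668, plus strand), the receptor that binds IGF1 and IGF2, moved with Insr under etomoxir but not in the knockout. Normalised counts were 432 and 417 in WT and 531 and 501 in KO. For Control they were 339 and 303, for ETO 497 and 602, and for Released 348 and 404. ETO was highest and overlapped KO. Its mean was 1.71-fold higher in ETO than in Control (0.77 ± 0.11 SE, adjusted p = 2.23e-05), and after release it fell by 0.54 against ETO (adjusted p = 0.000642, not called in FPKM, adjusted p = 0.231). In KO both libraries lay above both WT libraries, a change of 0.28 (95% interval 0.04 to 0.52) that did not pass the test (adjusted p = 0.059) and did with replicate number as a block (adjusted p = 0.0314). The difference between the Igf1r changes in ETO and in KO was 0.49 ± 0.16 SE (adjusted p = 0.0161), and it was not called without KO replicate 2, Control replicate 2 or ETO replicate 2 (adjusted p = 0.0523, 0.0773 and 0.0977). Set against the larger row of Insr per length, Igf1r made up 43.7% and 35.3% of the summed FPKM in WT and 73.4% and 69.6% in KO. The Igf1r share was 48.3% and 40.9% for Control, 49.7% and 51.0% for ETO, and 63.2% and 61.4% for Released. The smaller Insr row, left out here, held 0.98 and 1.18 FPKM in WT and 1.36 and 0.94 in KO. In KO that was near the 1.40 and 1.37 of the larger row. FPKM per 1000 counts varied 1.77-fold between libraries for Igf1r and 2.32-fold for the larger Insr row, so these shares carry that uncertainty as well.

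Irs2 (ENSMUSG00000038894, chromosome 8, 10984681 to 11008458, minus strand), an adaptor known for its part in liver and beta cells, had the largest change of the 7 genes. Libraries held 499 and 378 normalised counts in WT and 519 and 487 in KO. Control had 227 and 224, ETO 838 and 979.7, and Released 220.4 and 234. Both ETO libraries lay far above all others, and Released and Control overlapped. The mean in ETO was 4.03-fold that of Control (log2 change 2.00 ± 0.12 SE, adjusted p = 1.85e-09). After release it was 4.00-fold lower than in ETO (-1.99 ± 0.12 SE, adjusted p = 2.62e-09), and the change from Control to Released was 0.01 (95% interval -0.25 to 0.27). In KO it changed by 0.21 (interval -0.05 to 0.47, adjusted p = 0.194), and without WT replicate 1 by 0.41 (adjusted p = 0.0135, called). The difference between the ETO and KO changes was 1.79 (SE 0.17, adjusted p = 5.71e-07). Irs2 shares exonic bases with the antisense gene 9530052E02Rik, whose own row held at most 1.17 normalised counts, and strand use in the counting is not given in the sources used here.

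Irs1 (ENSMUSG00000055980, chromosome 1, 82233101 to 82291416, minus strand), the paralog of Irs2 known for its part in muscle and fat, was the least abundant of the 7. Its 3 rows summed to 34.0 and 29.8 normalised counts in WT and 32.1 and 31.4 in KO. Control had 29.5 and 25.6, ETO 51.3 and 62.7, and Released 32.6 and 22.5. ETO was highest and stood apart from every other group. Control lay just below both WT and KO, WT overlapped KO, and Released overlapped all 3. The mean was 2.07-fold higher in ETO than in Control (1.02 ± 0.27 SE, adjusted p = 0.00396), and it fell by 1.04 after release (adjusted p = 0.00381). Both calls were lost in the FPKM values (adjusted p = 0.0537 and 0.0582), and the fall was lost without Released replicate 2 (adjusted p = 0.057). KO and WT did not differ detectably at this depth (-0.0025, interval -0.57 to 0.57). The difference between the Irs1 changes in ETO and in KO was 1.02 ± 0.38 SE (adjusted p = 0.0331). It was not called without WT replicate 1, KO replicate 1, KO replicate 2, Control replicate 2 or ETO replicate 2 (adjusted p = 0.0527 to 0.118). Per length, Irs1 made up 3.11% to 9.17% of the summed FPKM of Irs1 and Irs2, counting the main row of Irs1, so Irs2 was the main transcript of the pair in every library. Irs1 shares exonic bases with the antisense gene Gm9747, whose row held at most 7.04 normalised counts.

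**Figure D2:**
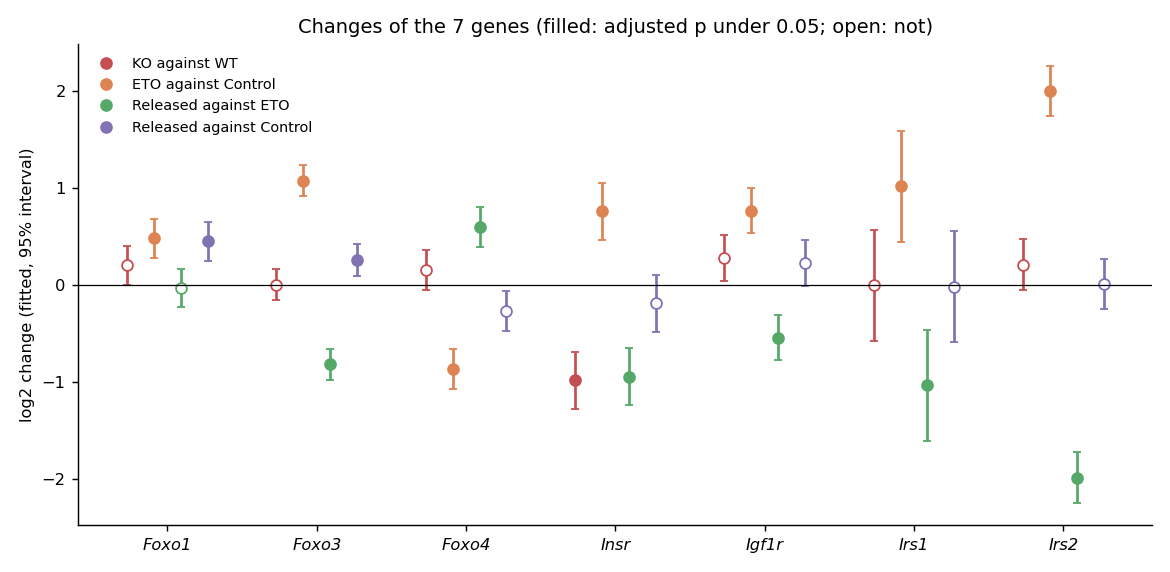
Fitted log2 changes (vertical axis) of the 7 genes in 4 comparisons, with 95% intervals as bars. Filled points passed an adjusted p of 0.05 and open points did not. Irs2 has the largest rise under etomoxir (2.00) and the largest fall after release (-1.99), and Insr is the one gene with a filled point for the knockout.

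The 3 FoxO genes moved in different directions under etomoxir. Foxo3 (ENSMUSG00000048756, chromosome 10, 42181841 to 42276755, minus strand), a factor known for roles in quiescence and stress resistance, was the most abundant of the 7. WT held 2376 and 2141 normalised counts and KO 2294 and 2227. Levels were 1438 and 1270.3 for Control, 2732 and 2985 for ETO, and 1635 and 1597 for Released. WT and KO overlapped, and the other groups stood apart from their neighbours in the order. Its mean was 2.11-fold higher in ETO than in Control (1.08 ± 0.08 SE, adjusted p = 8.37e-09). It fell by 0.82 after release (adjusted p = 2.12e-07). Released libraries remained above Control (0.26 ± 0.08 SE, adjusted p = 0.0364), a call lost without Control replicate 2, Released replicate 1 or Released replicate 2 (adjusted p = 0.327, 0.203 and 0.146). That call was also lost in FPKM (0.34, adjusted p = 0.163) and with limma fitted without its trend and robust options (adjusted p = 0.155). In KO against WT the Foxo3 change was 0.0029, with an interval of -0.16 to 0.16.

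Foxo4 (ENSMUSG00000042903, chromosome X, 101254528 to 101260873, plus strand) went the other way. WT libraries had 570.1 and 548 normalised counts and KO libraries 655 and 588. Control libraries had 664 and 653, ETO libraries 334 and 387, and Released libraries 576 and 517. Both ETO libraries lay below those of every other group. The mean was 1.83-fold lower in ETO than in Control (-0.87 ± 0.10 SE, adjusted p = 1.43e-06), and it rose by 0.60 after release (adjusted p = 7.46e-05). Released remained at -0.27 against Control (adjusted p = 0.0834, not called). The adjusted p was 0.0417 with replicate number as a block and 0.0311 in a fit per experiment. The difference between the ETO and KO changes was -1.02 (SE 0.14, adjusted p = 1.51e-05).

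Foxo1 (ENSMUSG00000044167, chromosome 3, 52268336 to 52353221, plus strand), the FoxO factor best known from the control of glucose production in liver, rose under etomoxir and stayed near its ETO level in Released. Its normalised counts were 444 and 439.8 for WT and 482 and 537 for KO. Those of Control were 436 and 415, of ETO 557 and 634, and of Released 571 and 592. ETO and Released overlapped, and both lay above Control. The mean was 1.40-fold higher in ETO than in Control (0.48 ± 0.09 SE, adjusted p = 0.000335). From ETO to Released it changed by -0.03 (interval -0.23 to 0.17). Released against Control it was higher by 0.45 (SE 0.09, adjusted p = 0.00509), a call lost without Control replicate 2 or Released replicate 2 (adjusted p = 0.063 and 0.066) and in the FPKM values (adjusted p = 0.167). In KO it changed by 0.20 (interval 0.0037 to 0.40, adjusted p = 0.101), with both KO libraries above both WT libraries. The difference between the ETO and KO changes of Foxo1, 0.28 (adjusted p = 0.0841), was not called as deposited or in FPKM (0.27, adjusted p = 0.334). It was called with median-of-ratios factors (0.46, adjusted p = 0.00701), TMM (trimmed mean of M values) factors (0.45, adjusted p = 0.00904) and total signal (0.61, adjusted p = 0.000844). Foxo1 shares exonic bases with the antisense gene Gm20402, which was listed at 0 in every library.

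Per length, the make-up of the FoxO pool differed between groups. The summed FPKM of the 3 genes was 36.7 and 34.5 for Control, 44.1 and 50.7 for ETO, and 39.2 and 39.3 for Released. WT summed to 48.8 and 42.9, and KO to 47.4 and 42.9. Foxo3 made up 44.2% and 42.1% of it for Control, 71.8% and 67.1% for ETO, and 51.3% and 48.1% for Released. Foxo4 made up 46.4% and 48.3% for Control, 18.2% and 23.0% for ETO, and 37.2% and 39.9% for Released. Control libraries thus held the 2 in near equal shares, while Foxo3 led in ETO. FPKM per 1000 counts varied 1.14-fold between libraries for Foxo3 and 1.28-fold for Foxo4, so the FoxO shares carry that uncertainty. In WT the shares of Foxo3 and Foxo4 were 61.5% and 60.1% against 31.2% and 31.8%, and in KO 57.3% and 57.6% against 34.6% and 32.5%. Foxo1 stayed between 7.21% and 11.9% in all libraries. The sum leaves out Foxo6, a further FoxO gene named after its values were seen, which was not called in KO or ETO (0.43 and 0.24). Released held 139 and 127 normalised counts of Foxo6, above Control at 74.9 and 61.2 and ETO at 77.1 and 83.0 (0.96 against Control, adjusted p = 0.0415).

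**Figure D3:**
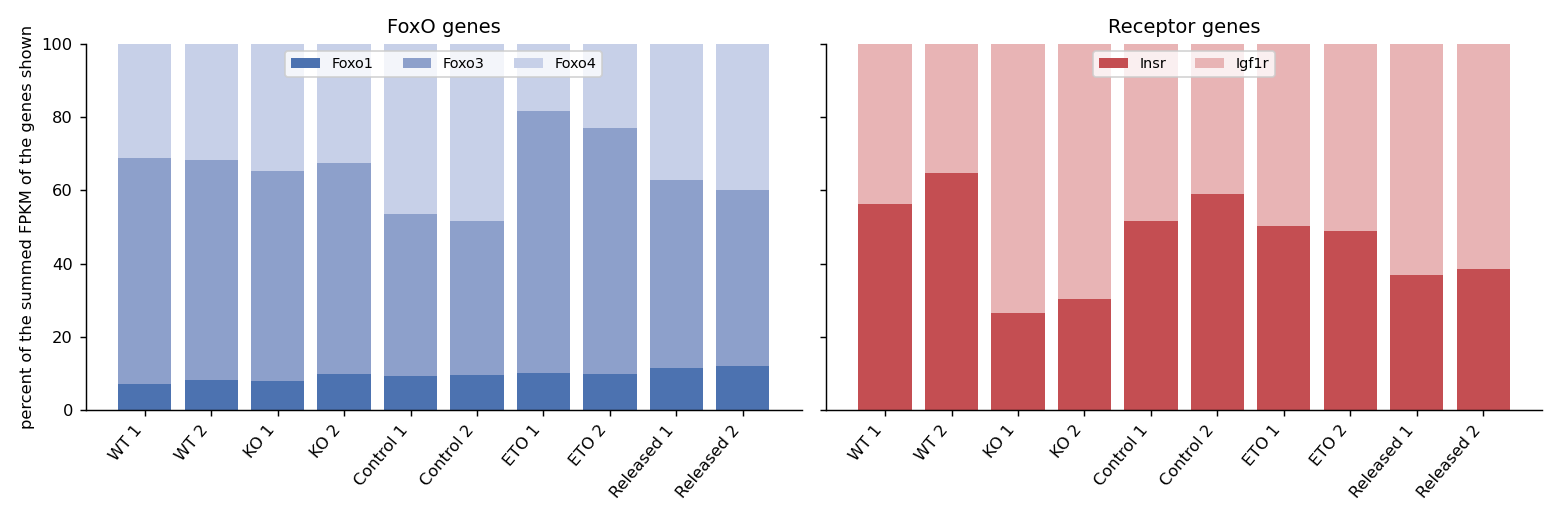
Percent of summed FPKM (vertical axis) held by each FoxO gene (left) and each receptor gene (right) in the 10 libraries. Foxo3 takes 67.1% to 71.8% of the FoxO sum in ETO and 42.1% to 44.2% in Control, and Insr takes 26.6% and 30.4% of the receptor sum in KO and 56.3% and 64.7% in WT. Only the larger row of Insr is counted.

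After release, 6 of the 7 genes were called against ETO (Foxo4 higher, 5 lower), beside 57.7% of all tested genes (33.1% higher and 24.6% lower), and Foxo1 was not. Against Control 2 were called, Foxo1 and Foxo3, both higher, beside 12.5% of all genes (7.03% higher and 5.51% lower). These comparisons share the ETO or the Control libraries with ETO against Control, so their values are set side by side and are not independent of it. For the difference between the ETO and KO changes, which share no library, 6 of 7 genes were called (5 higher and Foxo4 lower), beside 54.5% of all genes (22.2% higher and 32.3% lower).

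The genes whose pattern was most like that of each member were sought among 9823 genes with a mean normalised count of at least 50, by Pearson's r of log2 values over the 10 libraries. All points share the same 5 groups and libraries, and r is given as a description with no test. For Irs2 they were Gaa, the lysosomal alpha-glucosidase (r = 0.995), Tbc1d9 (0.992) and Tspan9 (0.989). For Foxo3 they were Lpin1, a phosphatidate phosphatase (0.993), Klhl26 (0.993) and Cdc42bpg (0.989). For Foxo4 they were Smarcd3, a chromatin remodelling subunit (0.98), Sipa1l1 (0.978) and Adsl, an enzyme of purine synthesis (0.974). For Igf1r they were Ckmt1, mitochondrial creatine kinase (0.974), Traf4 (0.972) and Camsap1 (0.972), and for Irs1 Shc2, another receptor adaptor (0.966), Pkd1 (0.958) and Scly (0.954). For Insr they included Vamp8, a SNARE protein of vesicle fusion (0.956), and Irgq (0.952), which changed by -0.68 and -0.72 in KO. For Foxo1 they were Prex2 (0.971), Igf2 (0.915) and Rgs12 (0.912). Among the members, Irs2 ran closest to Foxo3 (r = 0.959), Igf1r to Foxo3 (0.925), and Foxo4 was opposed to every other member (-0.777 to -0.564).

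The wider pathway was read through 9 lists with 112 genes besides the members. Of these, 111 had a row and 98 were tested. In KO against WT 41 rose and 16 fell, so 58.2% were called, beside 37.9% of all genes. In ETO against Control 37 rose and 34 fell (72.4% called, beside 60.8%). The balance depended on the scaling. In KO it was 35 higher and 21 lower with median-of-ratios or TMM factors and 27 and 25 with total signal, and in ETO 42 and 26, 42 and 27, and 46 and 24 with these 3 in turn. The medians of the 98 were 0.18 in KO and -0.01 in ETO. The calls of each list below stand beside 24.6% higher and 13.3% lower of all tested genes in KO. In ETO they stand beside 26.8% higher and 34.0% lower.

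Ligand transcripts were low, except that of Igf2 in ETO and Released. Ins1 and Ins2 were listed at 0 in all 10 libraries, and Igf1 reached at most 10.8 normalised counts. Of 6 genes in the list of ligands and other receptors 2 were tested, and both rose in ETO. Igf2, the imprinted fetal growth factor, held 11.0 and 8.30 normalised counts as Control, 132 and 151 as ETO, and 84.8 and 86.7 as Released. Its changes were 3.75 in ETO against Control (adjusted p = 2.68e-08) and 3.04 in Released against Control (adjusted p = 1.14e-05). The call in Released was lost in FPKM (1.84, adjusted p = 0.1). Igf2r, the scavenger receptor that removes IGF2, went from 1926 and 1950 in Control to 4500.3 and 5442 in ETO (1.35, adjusted p = 6.27e-10) and returned to 1783 and 1823. In KO Igf2r changed by 0.08 (not called) and Igf2 by 1.03 from 7.40 and 8.84 to 21.5 and 14.4 (adjusted p = 0.0113), a call lost without WT replicate 1 or KO replicate 1 (adjusted p = 0.0539 and 0.0924).

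Of 5 tested IGF binding proteins, which hold IGFs outside the cell, 2 rose and 0 fell in KO (2 and 1 with each other scaling), and 2 rose and 2 fell in ETO. Igfbp7 was one of the rises in ETO (1.07, adjusted p = 0.033), a call lost without Control replicate 2, ETO replicate 1 or ETO replicate 2 (adjusted p = 0.202, 0.114 and 0.0918). Igfbp2 went from 2178 and 2085 in Control to 592 and 606 in ETO (-1.83, adjusted p = 4.96e-11) and was not called in KO (-0.18). Igfbp3 rose in both, by 1.74 in KO and 1.34 in ETO. Igfbp5 rose by 0.91 in KO (not called in FPKM, adjusted p = 0.0942) and fell by 1.04 in ETO.

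Of 9 tested receptor adaptors 2 rose and 0 fell in KO, and 3 rose and 4 fell in ETO. The ETO split was 3 and 3 with median-of-ratios or TMM factors and 4 higher and 3 lower with total signal, and in KO 1 fell with each of these. Shc1 rose in KO (0.62) and was not called in ETO (0.02). Gab1 rose (0.44) and Grb2 fell (-0.64) in ETO. Irs3 and Irs4 stayed under 10 normalised counts in every library and were not tested. Of 9 tested inhibitors of the receptors and IRS proteins 3 rose and 0 fell in KO (3 and 2 with total signal), and 3 rose and 2 fell in ETO. Grb10, an imprinted adaptor that blocks the insulin and IGF1 receptors, went from 665 and 658 in Control to 2901 and 3054 in ETO (2.17, adjusted p = 2.42e-12) and to 861 and 875 in Released, and changed by -0.04 in KO. Trib3, a pseudokinase that binds AKT, rose in KO (1.70) and in ETO (2.33), and Trib1 rose in both (0.82 and 0.45, the second call lost without ETO replicate 1, adjusted p = 0.0655). Socs2 rose in KO (0.37) and fell in ETO (-0.38).

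Of 6 PI3K subunit genes 3 rose and 1 fell in KO, and 1 rose and 1 fell in ETO. With total signal 1 rose and 1 fell in KO. Pik3cb, the beta catalytic subunit, rose in KO (0.31) and in ETO (0.61). The KO rise was not called with total signal as the factor or in FPKM (adjusted p = 0.147 and 0.0809). Pik3cd fell in KO (-0.83), and Pik3r2 rose in KO (0.39, a call lost without WT replicate 2 or KO replicate 1, adjusted p = 0.135 and 0.117) and fell in ETO (-0.47). The fall of Pik3cd in KO was not called in FPKM (-0.26, adjusted p = 0.777). Pik3r3 was counted in a row merged with 2 other genes, which rose by 0.55 in KO (not called in FPKM, adjusted p = 0.449). Of 7 tested phosphatases of phosphoinositides and AKT 3 rose and 2 fell in KO, and 2 rose and 1 fell in ETO. The KO split turned to 2 higher and 3 lower with median-of-ratios or TMM factors, and to 1 and 3 with total signal, and that in ETO to 3 higher and 0 lower with each of the 3. Inpp4a fell in KO (-0.95, not called in FPKM, adjusted p = 0.0873). Inppl1, the lipid phosphatase SHIP2, rose in both (0.33, not called with total signal as the factor, and 0.60). Inpp5d rose in ETO (0.41).

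Of 13 tested kinases of the AKT, PDK1, mTORC2, SGK and GSK3 group 2 rose and 4 fell in KO, and 3 rose and 4 fell in ETO, where total signal gave 5 and 3. Sgk1, an AKT-like kinase that also phosphorylates FoxO factors, went from 4734 and 4625 normalised counts in Control to 1613 and 1627 with etomoxir and 4157 and 4113 after release. It fell by 1.53 in ETO (adjusted p = 9.56e-12) and rose by 0.50 in KO (adjusted p = 1.27e-05). Akt1 rose in ETO (0.63, adjusted p = 5.19e-05). In KO Akt1 changed by -0.26, a call (adjusted p = 0.0484) that did not hold without WT replicate 1 or KO replicate 2 (adjusted p = 0.145 and 0.235), nor without any other single library except those of Control. Pdpk1, the kinase PDK1, rose in ETO (0.34), and Mlst8, a subunit of both mTOR complexes, fell in KO (-0.55) and in ETO (-0.33, a call lost without Control replicate 1, adjusted p = 0.0685, and with median-of-ratios or total signal factors).

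Of 19 genes listed as regulators of FoxO proteins 14 rose and 1 fell in KO, while 3 rose and 11 fell in ETO. Foxo6, itself a FoxO gene, was among the 19 and was called in neither. The medians were 0.36 and -0.27, beside 0.08 and -0.09 over all genes. With total signal as the factor 9 rose and 2 fell in KO, and 6 rose and 7 fell in ETO (medians 0.19 and -0.098). Of the 11 called in both comparisons, 8 moved in opposite directions (72.7%, beside 49.5% of the 4176 genes called in both among all tested). Ywhaq, of the family that holds phosphorylated FoxO in the cytoplasm, fell in ETO from 1137 and 1082 to 459.6 and 438 (-1.30, adjusted p = 7.06e-09). In KO it rose by 0.26, a call lost without WT replicate 1 or KO replicate 2 (adjusted p = 0.254 and 0.251) and with each other scaling. Skp2, a ubiquitin ligase subunit that targets Foxo1, fell in ETO (-1.17). Setd7, a lysine methyltransferase that acts on Foxo3, went from 147.5 and 156 to 1670.5 and 1710.4 in ETO (3.47, adjusted p = 3.6e-13) and rose by 0.52 in KO, and Mdm2, a ubiquitin ligase of p53 and FoxO factors, rose in both (0.75 and 1.74). Sirt2, a deacetylase, was the regulator that fell in KO (-1.19), named after its value was seen.

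Of 31 tested FoxO target genes 12 rose and 8 fell in KO, and 19 rose and 9 fell in ETO. Their medians were 0.10 in KO and 0.29 in ETO, beside 0.08 and -0.09 over all genes. The split in KO depended on the scaling, with 9 higher and 9 lower with median-of-ratios or TMM factors and 8 higher and 10 lower with total signal, while in ETO 19 rose and 6 fell with each of these 3. Gadd45a, a stress gene of growth arrest and DNA repair, went from 86.5 and 66.9 in Control to 582.5 and 578 in ETO (2.92, adjusted p = 9.31e-11) and rose by 1.11 in KO. Klf6 went from 1585 and 1502 to 6279 and 6103 (2.00, adjusted p = 1.3e-11). The row of Glul, glutamine synthetase, merged with Mir8114, fell in ETO (-1.27) and in KO (-0.29, not called in FPKM, adjusted p = 0.436). Ccnd1, a cyclin that FoxO factors are known to repress, fell in ETO (-1.89, adjusted p = 5.12e-12) and rose in KO (0.54). Ccnd2, also known as a repressed target and named after its values were seen, rose in ETO (1.20) and in KO (1.67). It was low, at 8.33 and 1.96 normalised counts in WT and 18.1 and 13.6 in KO. Its value in WT replicate 2 was under that of 3 reads (2.95). With repressed targets in the list, its split of rises and falls has no set reading. Several other targets named after their values were seen moved apart in the 2 experiments. Pdk4, which shuts pyruvate out of the TCA cycle, rose in ETO (1.92) and fell in KO (-0.75), and Gabarapl1, of autophagosome formation, likewise (1.00 and -0.37). Sod2, the mitochondrial superoxide dismutase, fell in ETO (-0.61) and rose in KO (0.50). Of 19 targets called in both comparisons, 9 moved in opposite directions (47.4%, close to the 49.5% of all genes). The liver targets G6pc, Pck1 and Igfbp1 stayed below the filter. No FoxO protein or its location was measured.

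**Figure D4:**
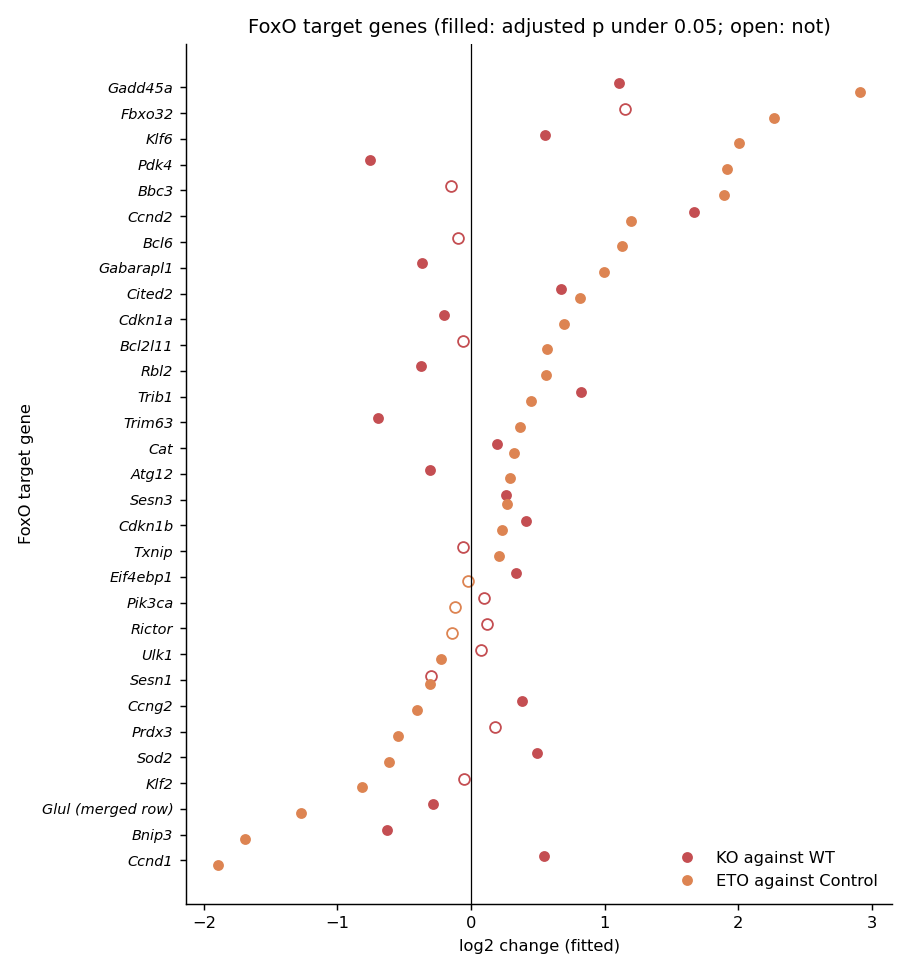
Fitted log2 changes (horizontal axis) of the 31 tested FoxO target genes in KO against WT and ETO against Control, ordered by the ETO change. Filled points passed an adjusted p of 0.05. Changes in ETO run from -1.89 (Ccnd1) to 2.92 (Gadd45a), and points of the 2 comparisons lie on opposite sides of 0 for genes such as Pdk4 and Ccnd1.

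The deposited scale bears on small changes. Between it and a scaling by total signal, the median change of all genes moved from 0.08 to -0.08 in KO and from -0.09 to 0.07 in ETO, and that of the difference of changes from -0.13 to 0.19. The share of higher genes among all calls was 64.8% in KO on the deposited scale. It was 52.5% on a median-of-ratios scale, 52.9% on a TMM (trimmed mean of M values) scale and 37.0% on total signal. In ETO these shares were 44.1%, 51.9%, 50.6% and 57.0%, in Released against ETO 57.4%, 49.0%, 49.2% and 45.8%, in Released against Control 56.1%, 58.1%, 54.3% and 66.5%, and for the difference of changes 40.7%, 53.3%, 51.9% and 64.1%. The directions and calls of all 7 genes in ETO against Control, and of Insr in KO against WT, were the same under these 3 scalings.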

How the data were processed

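Gene tables of 10 mouse ES cell libraries were used. The submitters' processing notes name TopHat2 2.1.1, SAMtools 1.5, deepTools and the mm10 build. The counting program, its annotation and strand use are not given in the sources used here. The deposited signal is, per the file headers, a count per gene and library. Low values (under 20 reads) were whole multiples of 1 read, within 0.1 read, in 89.0% to 90.3% of cases, but only 79.8% to 85.0% of all values were, so no count model was fitted. The deposited FPKM values are, per the file headers, FPKM per gene. Of 50273 rows, 1314 merge several genes. Normalised counts of rows of 1 name were summed, and for FPKM the row with the highest mean count was kept.

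Values were tested as log2(value + 1), which understates changes of low genes, with limma 3.58.1 in R 4.3.3 (1 mean per group, intensity trend, robust, two-sided, Benjamini-Hochberg). Rows of mt-Atp6 to mt-Nd5 and of mt-Nd6, listed at 0 in Released replicate 1 alone, were left out. The members, lists and tests were chosen with earlier results of these data known. Named were all members, Kat8, up to 4 genes per list with the smallest adjusted p in KO against WT or ETO against Control, and the 3 genes most like each member (predicted and merged genes passed over). A few genes that this rule names are not reported here. Each comparison was refitted with other pseudocounts, filters, scalings (median of ratios, TMM, total signal), FPKM values, single libraries left out and a replicate block. The procedure was tested on simulated data. Tables were made with pandas 2.3.3 and numpy 2.4.6, and figures with matplotlib 3.10.9, in Python 3.11.15.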

Additional observations from a re-analysis of the deposited data

How the results depend on the processing

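Over 763 refitted values of the 7 genes, 713 kept direction and side of the threshold, 26 lost a call, 9 gained one and 15 changed sign. Some of these refits could move only the SE and not the fitted change, so their direction was fixed in advance. They were the fits with another filter on low values, without a library from outside the comparison, without trend and robust fitting, per experiment and with the replicate block. A fit of rows left unsummed likewise could not move the change of Foxo1, Foxo3, Foxo4, Igf1r or Irs2, each held in a single row. In ETO against Control all 7 genes kept direction under every alternative, and the losses were those of Insr and Irs1 in the FPKM values. Insr in KO against WT was called under every alternative. Of 2733 values of named pathway genes and Kat8, 143 lost a call and 2 changed sign, both in the FPKM values (Pik3r2 in KO, -0.39, and the Inppl1 difference of changes, -0.13).

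Sign changes among the 7 genes concerned changes near 0 that were not called. For Foxo3 in KO they were -0.075 (median of ratios), -0.072 (TMM), -0.16 (total signal), -0.10 (FPKM) and -0.072 to 0.078 with 1 library left out. For Foxo4 in KO it was -0.016 with total signal, and Irs1 in KO ran from -0.094 to 0.089 with 1 library left out. Foxo1 in Released against ETO ran from -0.12 to 0.060 with 1 library left out. In Released against Control, Irs1 was 0.014 with total signal, 0.0041 in FPKM and -0.27 to 0.24 with 1 library left out, and Irs2 -0.033 to 0.056. The cause was not tested.

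In KO against WT, 2 of the 7 genes were called with the replicate block and 1 to 2 with 1 library left out. In Released against Control (2 called) it was 0 in FPKM, 1 without trend and robust fitting, 3 with the replicate block and 0 to 2 with 1 library left out. A fit per experiment also gave 3 in Released against Control, with Foxo4 added. Over all genes, 3944 were called higher and 2142 lower in KO, against 2172 and 3696 with total signal and 1977 and 950 in FPKM. In Released against Control, 1128 and 884 became 210 and 131 in FPKM, 762 and 409 without trend and robust fitting, 2012 and 1650 in a fit per experiment, and 1627 and 1483 with the replicate block. With 1 library left out these ran from 454 to 1526 and from 280 to 1339. For the difference of changes, 3560 and 5194 became 5493 and 3072 with total signal.

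Same-numbered libraries did not deviate together (r of deviations across genes -0.015 to 0.0812), so the numbers were not taken as pairs. The block raised the counts of calls and moved Igf1r in KO (adjusted p = 0.0314) and Foxo4 in Released against Control (adjusted p = 0.0417) past the threshold. With 2 libraries a group, a lone library is assumed to vary like the other groups. Depth limits Irs1 most, at 22.5 to 62.7 normalised counts.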
